A study of Mus musculus with 14 samples.

Results

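The forkhead transcription factor genes were taken as the gene symbols made of Fox, a letter from a to s and a single digit, with 1 gene of this pattern left out. In this way 42 of the 23284 symbols with counts were selected. Their transcripts were counted by RNA-seq in mouse forelimb buds (strain NMRI), in 4 groups with 1 embryo per replicate and both forelimb buds of an embryo pooled. At E10.0, when the embryos had 30 somites, and again at E10.5, when they had 35, 3 wild-type and 4 *Smad4*Δ/Δc embryos were sequenced. The embryos called wild type were *Smad4*+/+ PrxCreT/+ and the mutants *Smad4*Δ/Δc PrxCreT/+, so that the *Prrx1-Cre* transgene was present in all 14 embryos. This transgene drives CRE recombinase in the limb bud mesenchyme. The mutants carried a *Smad4* null allele in all of their cells and lost the other, conditional allele in the mesenchyme, whereas ectoderm, endothelium and blood kept it. The samples were whole buds, and fewer cells of a type and less RNA per cell cannot be told apart in them. The comparisons asked which forkhead genes depended on *Smad4*, the mediator of BMP and TGFβ signals, at each stage, and which of them changed as the bud grew out.

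Forkhead proteins share a winged-helix DNA-binding domain and recognize closely related A- and T-rich sites. Members of the FOXC, FOXD, FOXF and FOXL subfamilies pattern mesodermal tissues, several of them in response to hedgehog ligands. FOXO proteins are held in the cytoplasm by AKT and 14-3-3 proteins, FOXM1 drives genes of mitosis, FOXP proteins repress transcription as dimers and FOXJ1 switches on the genes of motile cilia.

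A member was called when it reached a fold change of 1.2 and an FDR no higher than 0.1 in edgeR's exact test, with the Benjamini-Hochberg correction taken over all 12393 autosomal genes tested. Over all comparisons, 7 members were called, namely *Foxc1*, *Foxj1*, *Foxn2*, *Foxo1*, *Foxo4*, *Foxp1* and *Foxp2*. Of these, *Foxo4* lies on chromosome X, and its correction was taken over the 12806 genes of a table that kept this chromosome. RefSeq promoters (build GRCm38.p6) were on hand for 27 of the 42 members and for 3 of these 7. These 3 are shown because their transcripts were higher at E10.5 than at E10.0, as the 250 bases before the start site in 5′ to 3′ direction. Capitals mark a forkhead motif or the GC-rich SMAD motif GGCGCC, each searched on both strands. The forkhead motif was taken as GTAAACA, the related ATAAACA, the variant GTAAATA or the variant ATAAATA, and any of them counted.

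Foxc1, chr13:31806396-31806645, + strand: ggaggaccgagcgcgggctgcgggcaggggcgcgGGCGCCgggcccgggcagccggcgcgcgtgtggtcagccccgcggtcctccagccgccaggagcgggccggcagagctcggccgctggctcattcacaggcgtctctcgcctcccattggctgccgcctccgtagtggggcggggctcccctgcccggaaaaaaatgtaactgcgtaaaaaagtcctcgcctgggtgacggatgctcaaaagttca

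Foxp1, chr6:99520994-99521243, - strand: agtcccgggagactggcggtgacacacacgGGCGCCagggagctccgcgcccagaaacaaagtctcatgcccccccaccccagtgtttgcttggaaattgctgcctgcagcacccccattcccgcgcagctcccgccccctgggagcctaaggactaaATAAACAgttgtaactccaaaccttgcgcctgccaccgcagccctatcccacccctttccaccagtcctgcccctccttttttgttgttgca

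Foxo1, chr3:52268087-52268336, + strand: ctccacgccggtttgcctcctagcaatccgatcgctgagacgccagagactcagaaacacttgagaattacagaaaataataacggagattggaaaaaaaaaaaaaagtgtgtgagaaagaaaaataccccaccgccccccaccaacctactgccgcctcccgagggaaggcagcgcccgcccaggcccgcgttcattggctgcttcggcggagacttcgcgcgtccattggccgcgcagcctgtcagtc

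A window of 300 bases, which adds the 50 bases after the start, was searched in the same way for all members and genes. A forkhead motif lay in the window of 1 of the 11 members past the filter on low counts that had an entry, *Foxp1*, and in 15.1% of all 27025 promoters. GGCGCC lay in the windows of *Foxp1* and *Foxc1* among the 11, in 3 of all 27 windows of members and in 12% of all promoters. The palindromic SMAD motif GTCTAGAC was in none of the 27 windows of members and in 0.211% of all. The shorter SMAD motif CAGAC was in the windows of *Foxi2* and *Foxn3* among the 11, and in 49.7% of all. The windows of the 11 members past the filter held a median of 32 CpG dinucleotides (range 5 to 59), against 13.5 (range 3 to 31) in the 16 members below it and 7 in all promoters.

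Between 34066930 and 61691258 reads per embryo were counted on genes, so that 3 reads, the limit that a count of 0 allows, corresponded to 0.0513 to 0.0977 CPM, the count scaled by library size. *Smad4* itself was at 161 ± 8.43 CPM (SD, *n*=3) in wild type and 39.8 ± 4.19 CPM (*n*=4) in mutants at E10.0, and at 166 ± 2.27 and 37.0 ± 3.43 CPM at E10.5, with no overlap of the groups. The 8 markers of limb mesenchyme summed to between 1421 and 1962 CPM in all embryos. Of the markers of other cells, the 12 ectodermal genes summed to 192 to 363 CPM, the 10 endothelial genes to 319 to 402 CPM and the 8 erythroid genes to 2655 to 5099 CPM, with *Hba-a1* at 0 in all embryos. Mutant replicates 4 and 5 at both stages stood apart, as 1.72% to 8.05% of their reads lay on the ribosomal RNA precursor *Rn45s*, against 0.151% to 0.478% in the 10 other embryos. All 4 of these libraries were mutant, and the labels do not give what sets them apart. The other mutants, 2 at each stage, had 0.151% to 0.456%. Called members and those nearest to the threshold are therefore also given without these 4 libraries.

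Of the 42 members, 17 autosomal genes passed the filter on low counts (1 CPM or more in 3 or more embryos). Of the 3 members on chromosome X, which the study's methods left out, *Foxo4* passed the same filter in a table that kept this chromosome, so that 18 members could be compared and 24 could not. Per length of exon, *Foxk2* and *Foxm1* stood highest in wild-type forelimb buds at E10.0, with 34.2 ± 0.0274 and 30.2 ± 2.31 CPM per kb (SD, *n*=3). FOXK2 is a widely expressed repressor, and FOXM1 a factor of proliferating cells. *Foxo4* followed with 25.9 ± 1.63 and *Foxp4* with 22.9 ± 0.747 CPM per kb, and no neighbours among these 4 genes overlapped in range. Exon lengths came from an annotation other than the one used for counting, and the ranges between embryos do not cover their error. *Foxn3* (9.02 ± 0.663), *Foxk1* (7.54 ± 0.158), *Foxn2* (6.88 ± 0.627), *Foxj3* (6.0 ± 0.0623) and *Foxo1* (4.98 ± 0.165 CPM per kb) formed the next tier, in which *Foxk1* and *Foxn2* overlapped. *Foxp1* (2.77 ± 0.337), *Foxj2* (2.07 ± 0.230) and *Foxo3* (1.62 ± 0.212 CPM per kb) came below them. The lowest levels, from 1.01 down to 0.669 CPM per kb, were those of *Foxc1*, *Foxi2*, *Foxp2*, *Foxj1*, *Foxc2* and *Foxd2*, each of which overlapped with its neighbour. In mutants at E10.5 *Foxo4* stood highest at 30.5 ± 0.676 CPM per kb (*n*=4), but its range overlapped with that of *Foxk2* (29.0 ± 1.89).

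**Figure D1:**
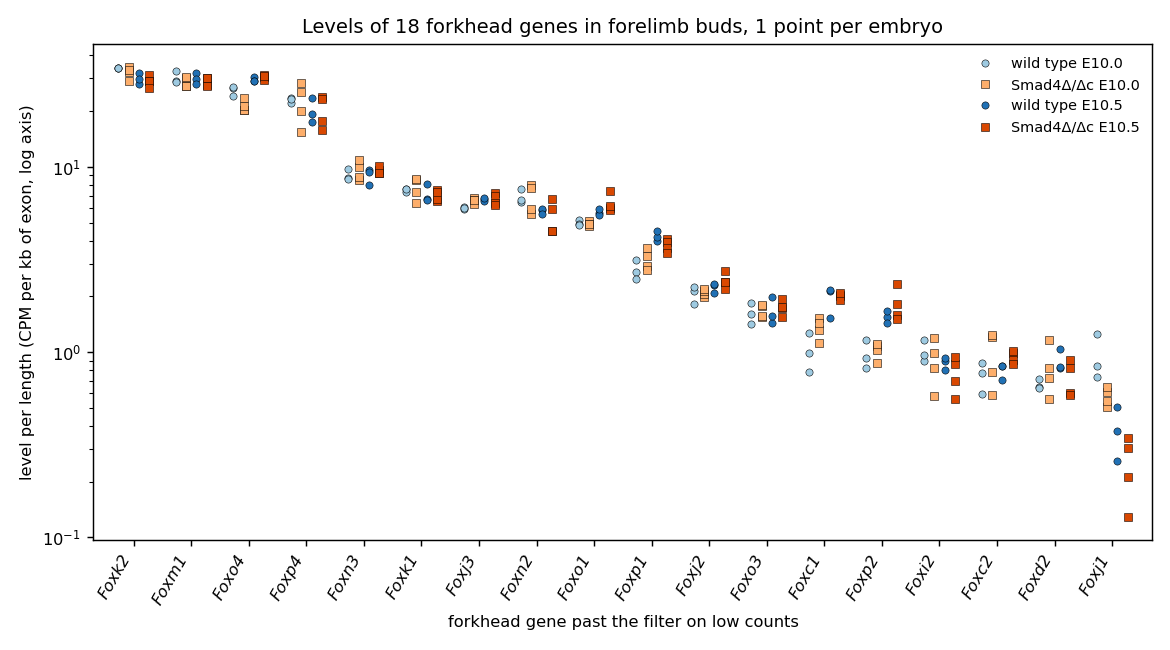
Level per length (CPM per kb of exon, log axis) of the 18 forkhead genes past the filter, with 1 point per embryo for wild type (circles, *n*=3 per stage) and *Smad4*Δ/Δc (squares, *n*=4 per stage). From *Foxk2* at 34.2 to *Foxd2* at 0.669 CPM per kb in wild type at E10.0, 4 genes stand above all others and the members of the Foxc and Foxd groups lie at the low end.

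Of the 10 members whose longest coding transcript has 1 exon, 3 passed the filter (*Foxc1*, *Foxc2* and *Foxd2*), with 0.776 to 1.59 CPM per kb over all embryos. Of the 31 members with more exons, 15 passed, with 0.518 to 31.3 CPM per kb, and 1 member had no annotated coding transcript. *Foxp1* overlaps in exons with *Eif4e3*, *Foxk2* with *Narf* and *Foxm1* with *4933413G19Rik*. *Foxo1* and *Foxj2* overlap in exons with genes of the opposite strand that were not counted, *RP24-337A16.1* and *Gm4485*, and the counting ignored strand. The counts of all these members are therefore less certain.

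No autosomal member was called between the genotypes at either stage. At E10.0, 0 of 17 members passed the edgeR exact test, against 6.61% of all genes tested, and 2 had an unadjusted *P* under 0.05. At E10.5, 0 of 17 passed, against 3.73% of all genes tested, and 1 had an unadjusted *P* under 0.05. The edgeR quasi-likelihood test and DESeq2 also called 0 members at both stages. The median log2 fold change of the 17 members was 0.03 at E10.0 and 0.01 at E10.5, beside -0.02 and -0.01 over all genes tested.

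The members nearest to the threshold were *Foxj1* and *Foxc1*, both at E10.0. *Foxj1* was at 1.94, 3.27 and 2.20 CPM in the 3 wild-type embryos and at 1.33, 1.59, 1.69 and 1.43 CPM in the 4 mutants. All mutants were below all wild-type embryos, and the log2 fold change was -0.71 ± 0.25 (SE), with an adjusted *P* of 0.113 in edgeR's exact test. It passed when the stages were fitted apart (adjusted *P*=0.0585, edgeR exact test) and when wild-type replicate 1 at E10.0 (0.0916) or mutant replicate 1 at E10.5 (0.0637) was left out. Without mutant replicates 4 and 5 it was -0.74 and did not pass (adjusted *P*=0.135). *Foxc1*, a regulator of somites, skeleton and vessels, was at 3.95, 3.11 and 5.06 CPM in wild type and at 5.27, 4.48, 6.06 and 5.73 CPM in mutants. The groups overlapped, the log2 fold change was 0.41 ± 0.22 and the adjusted *P* 0.175 in edgeR's exact test. Without wild-type replicate 3 the difference was 0.61 and passed (adjusted *P*=0.0777). Without mutant replicates 4 and 5, the mutants with the highest levels, it was 0.29 and did not pass (adjusted *P*=0.378). Only 2 of the 17 members had groups that did not overlap at E10.0, *Foxj1* and *Foxj3* (wild type 64.4 to 65.6 CPM, mutants 68.2 to 73.0 CPM), against 17.8% of all genes tested.

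At E10.5 the lowest adjusted *P* was 0.476 (edgeR exact test), for *Foxj1*, with 1.32, 0.982 and 0.678 CPM in wild type and 0.338, 0.898, 0.792 and 0.554 CPM in mutants. The groups overlapped in this gene. *Foxc2*, the close paralog of *Foxc1*, was the 1 member whose groups did not overlap at E10.5, against 13% of all genes tested. Its levels were 2.28, 1.92 and 2.30 CPM in wild type and 2.70, 2.48, 2.35 and 2.77 CPM in mutants, a log2 difference of 0.25 ± 0.10 that did not pass (adjusted *P*=0.882, edgeR exact test).

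Of the 4 members with the highest levels per length in wild type at E10.0, *Foxo4* and *Foxp4* are described apart. *Foxk2* differed by -0.08 ± 0.05 on the log2 scale at the earlier stage and by -0.04 ± 0.07 at the later one, and *Foxm1* by -0.07 ± 0.08 and -0.06 ± 0.07. None of these 4 differences passed, and an adjusted *P* above the threshold does not show that the genotypes were alike.

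*Foxp4* and *Foxn2* differed among the mutants themselves. *Foxp4* was at 139 and 125 CPM in mutant replicates 4 and 5 at E10.0 and at 75.9 and 98.2 CPM in replicates 1 and 3, with wild type at 109 to 116 CPM in between. At E10.5 it was at 117 and 115 CPM in mutant replicates 4 and 5 and at 77.9 and 86.9 CPM in replicates 1 and 2. Wild type at E10.5 was at 85.7 to 115.6 CPM, which overlapped with the 115.2 to 117.4 CPM of mutant replicates 4 and 5. Among the mutants, *Foxp4* was thus higher in the libraries with much *Rn45s* at both stages. *Foxn2* ran the other way, with 41.1 and 43.7 CPM in mutant replicates 4 and 5 at E10.0 against 59.1 and 56.9 CPM in replicates 1 and 3, and 33.1 and 33.2 CPM against 49.3 and 43.8 CPM at E10.5. With mutant replicates 4 and 5 left out, *Foxp4* was called lower in mutants at E10.0 (log2 -0.36, adjusted *P*=0.0362, edgeR exact test), where all embryos gave -0.04 ± 0.19 and 0.928. At E10.5 the same fit gave -0.25 and an adjusted *P* of 0.319. Of the 17 autosomal members, 11 at E10.0 and 10 at E10.5 had mutant replicates 4 and 5 entirely above or below the 2 other mutants of the stage, as had 56.6% and 61.8% of all genes tested. The part of the *Rn45s* share in these values was not tested.

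**Figure D2:**
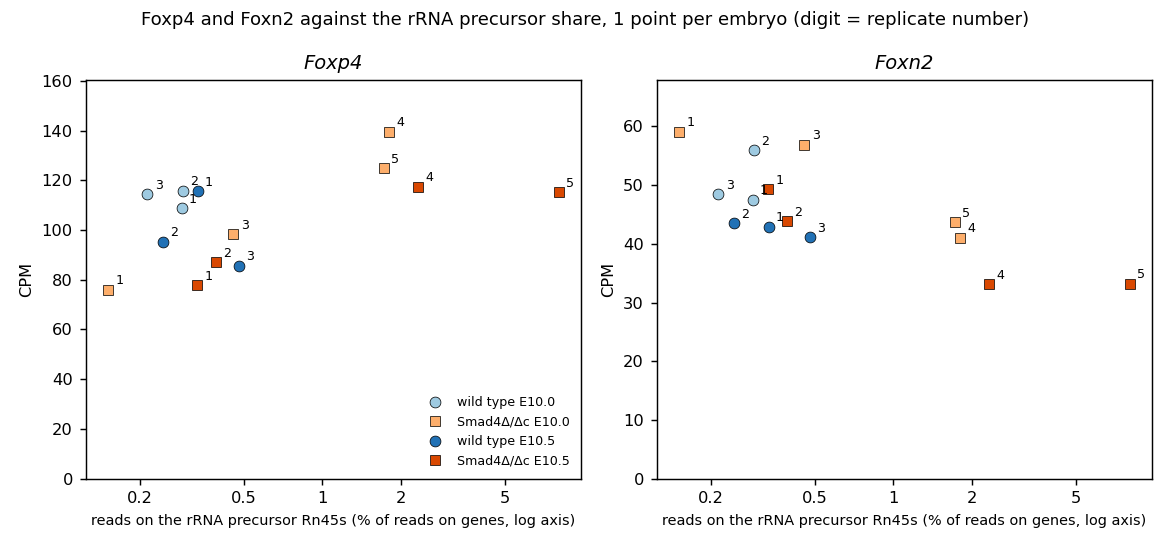
Levels (CPM) of *Foxp4* (left) and *Foxn2* (right) in each of the 14 embryos against the share of reads on the rRNA precursor *Rn45s* (% of reads on genes, log axis). Digits are replicate numbers. The 4 mutant libraries with 1.72% or more *Rn45s* lie at 115 to 139 CPM of *Foxp4* and at 33.1 to 43.7 CPM of *Foxn2*.

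From E10.0 to E10.5, 4 of 17 members were called in wild-type forelimb buds (23.5%), against 10.1% of all genes tested. *Foxc1*, *Foxp1* and *Foxp2* rose (5.39% of all genes did) and *Foxj1* fell (4.74% did). In *Smad4*Δ/Δc forelimb buds 5 of 17 members were called (29.4%), against 19.2% of all genes tested. There *Foxc1*, *Foxp2* and *Foxo1* rose (10.8% of all genes did), and *Foxj1* and *Foxn2* fell (8.4% did). The stages did not overlap in 6 members that were higher and 3 that were lower at E10.5 in wild type, against 37.0% of all genes in either direction, and in 4 and 1 in mutants, against 20% of all genes. The quasi-likelihood test called 4 members in each genotype, and DESeq2 called 4 in wild type and 5 in mutants. The stage comparisons use the same embryos as those between genotypes.

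*Foxc1* was at 6.10, 8.54 and 8.60 CPM in wild type at E10.5, above all 3 wild-type embryos at E10.0 (3.11 to 5.06 CPM). It rose by 0.94 ± 0.25 on the log2 scale, with an adjusted *P* of 3.57e-05 in edgeR's exact test. In mutants the levels at E10.5 were 8.07, 8.04, 7.64 and 8.34 CPM, also above all mutants at E10.0 (4.48 to 6.06 CPM). The increase there was 0.58 ± 0.10, with an adjusted *P* of 0.00328. *Foxc1* was thus called in both genotypes. Within mutant replicates 4 and 5 alone the increase was 0.44 and did not pass (adjusted *P*=0.314, edgeR exact test), and without them it was 0.73 and passed (adjusted *P*=0.0196). Here and below, the test within these replicates used the dispersions of all 14 samples. *Foxc1* lies on chromosome 13 of mm9 from 31898515 to 31902504.

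*Foxp1* and *Foxp2*, which encode repressors that bind DNA as homo- and heterodimers, both rose in wild type. *Foxp1* was at 37.4, 32.2 and 29.5 CPM at E10.0 and at 47.6, 50.1 and 53.9 CPM at E10.5, and it rose by 0.61 ± 0.11 on the log2 scale (adjusted *P*=2.25e-05, edgeR exact test). In mutants its levels were 34.8, 43.6, 39.6 and 32.9 CPM at E10.0 and 48.7, 46.9, 43.7 and 40.9 CPM at E10.5. These groups overlapped, and the difference of 0.26 ± 0.11 had an adjusted *P* of 0.0629 but fell short of 1.2-fold. With the replicate number as a block, the mutant difference was 0.27 and passed (adjusted *P*=0.0562, edgeR quasi-likelihood test). It also passed when mutant replicate 3 or 4 at E10.0, or 4 or 5 at E10.5, was left out, with differences from 0.27 to 0.34. Without mutant replicates 4 and 5 at both stages it was 0.29 and did not pass (adjusted *P*=0.118, edgeR exact test).

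*Foxp2* was at 15.7, 11 and 12.5 CPM in wild type at E10.0 and at 20.8, 19.2 and 22.6 CPM at E10.5. It rose by 0.67 ± 0.17 on the log2 scale (adjusted *P*=0.00165, edgeR exact test). In mutants it went from 14.6, 13.9, 11.7 and 14.9 CPM to 31.5, 24.3, 21.4 and 20.2 CPM, an increase of 0.82 ± 0.17 (adjusted *P*=3.35e-07). The stages did not overlap in either genotype, and within mutant replicates 4 and 5 alone the increase was 0.65 (adjusted *P*=0.0302) and without them 0.98 (1.02e-06, edgeR exact test). On chromosome 6 of mm9, *Foxp1* spans 98875332 to 99216526 (minus strand) and *Foxp2* 14851349 to 15391977 (plus strand). The promoter shown for *Foxp1* comes from another build and was not matched to this span, which may not hold its start site. *Foxp4*, which had the highest level per length in the FOXP subfamily, did not pass, with differences of -0.19 ± 0.13 in wild type and -0.14 ± 0.24 in mutants.

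*Foxj1*, the master regulator of motile cilia, had the lowest level per length of the 18 members over all embryos. From the 1.94, 3.27 and 2.20 CPM of wild type at E10.0 it fell to 1.32, 0.982 and 0.678 CPM at E10.5, a log2 fold change of -1.31 ± 0.36 (adjusted *P*=0.000648, edgeR exact test). Its counts were 100 to 160 reads per wild-type embryo at E10.0 and 31 to 55 reads at E10.5. In mutants the log2 fold change was -1.23 ± 0.29 (adjusted *P*=0.000247), again with no overlap of the stages. Within mutant replicates 4 and 5 alone it was -1.20 (adjusted *P*=0.0511, edgeR exact test) and without them -1.25 (0.0214). *Foxj1* lies on chromosome 11 of mm9 from 116192018 to 116196713.

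*Foxo1* was called in mutants. It was at 28.5, 27.2, 26.5 and 27.2 CPM at E10.0 and at 41.3, 33.1, 32.3 and 34.3 CPM at E10.5, a rise of 0.37 ± 0.09 on the log2 scale (adjusted *P*=0.00105, edgeR exact test). The stages did not overlap, and replicate 1 at E10.5 was the highest. In wild type the stages did not overlap either, with 26.8 to 28.6 CPM at E10.0 and 30.4 to 32.7 CPM at E10.5, but the difference of 0.18 ± 0.04 had an adjusted *P* of 0.315. Within mutant replicates 4 and 5 alone the difference was 0.31 and did not pass (adjusted *P*=0.177, edgeR exact test), and without them it was 0.43 and passed (0.00584). The related *Foxo3* had differences of 0.04 ± 0.18 in wild type and 0.06 ± 0.09 in mutants, and it did not pass in either.

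*Foxn2* was the other member called in mutants, from 59.1, 56.9, 41.1 and 43.7 CPM at E10.0 to 49.3, 43.8, 33.1 and 33.2 CPM at E10.5. The stages overlapped, and the log2 fold change was -0.33 ± 0.20 with an adjusted *P* of 0.0634 in edgeR's exact test. This call was lost in 7 of 24 alternatives, among them the quasi-likelihood test (adjusted *P*=0.110) and leaving out mutant replicate 1 or 3 at E10.0 (differences of -0.24 and -0.27) or 4 or 5 at E10.5 (both -0.25). Within mutant replicates 4 and 5 alone it was -0.35 and did not pass (adjusted *P*=0.334, edgeR exact test), and without them it was -0.31 and passed (0.0315). With the replicate block, which compares embryos of the same number, it was -0.36 with an adjusted *P* of 0.00312. In wild type *Foxn2* had 47.5, 55.9 and 48.5 CPM at E10.0 and 42.9, 43.5 and 41.1 CPM at E10.5. All embryos at E10.5 lay below those at E10.0, but the difference of -0.25 ± 0.08 had an adjusted *P* of 0.345.

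**Figure D3:**
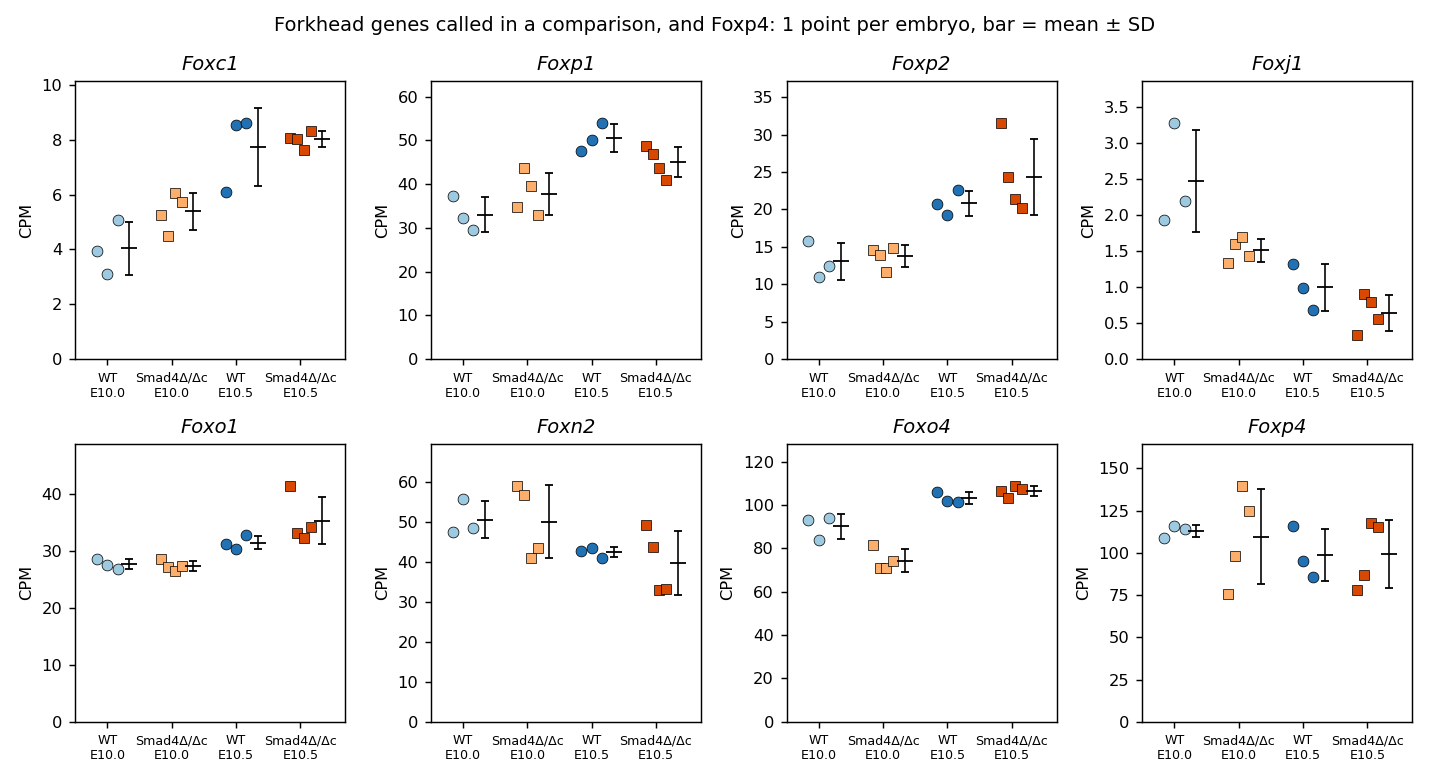
Levels (CPM, axes from 0) of the 7 members called in a comparison and of *Foxp4*, with 1 point per embryo, and the mean ± SD of each group beside its points. The stages do not overlap in wild type for the 7 called members, of which *Foxc1*, *Foxp1*, *Foxp2* and *Foxj1* were called there, *Foxo4* is lower in mutants at E10.0, and *Foxp4* and *Foxn2* spread widely among the mutants.

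**Figure D4:**
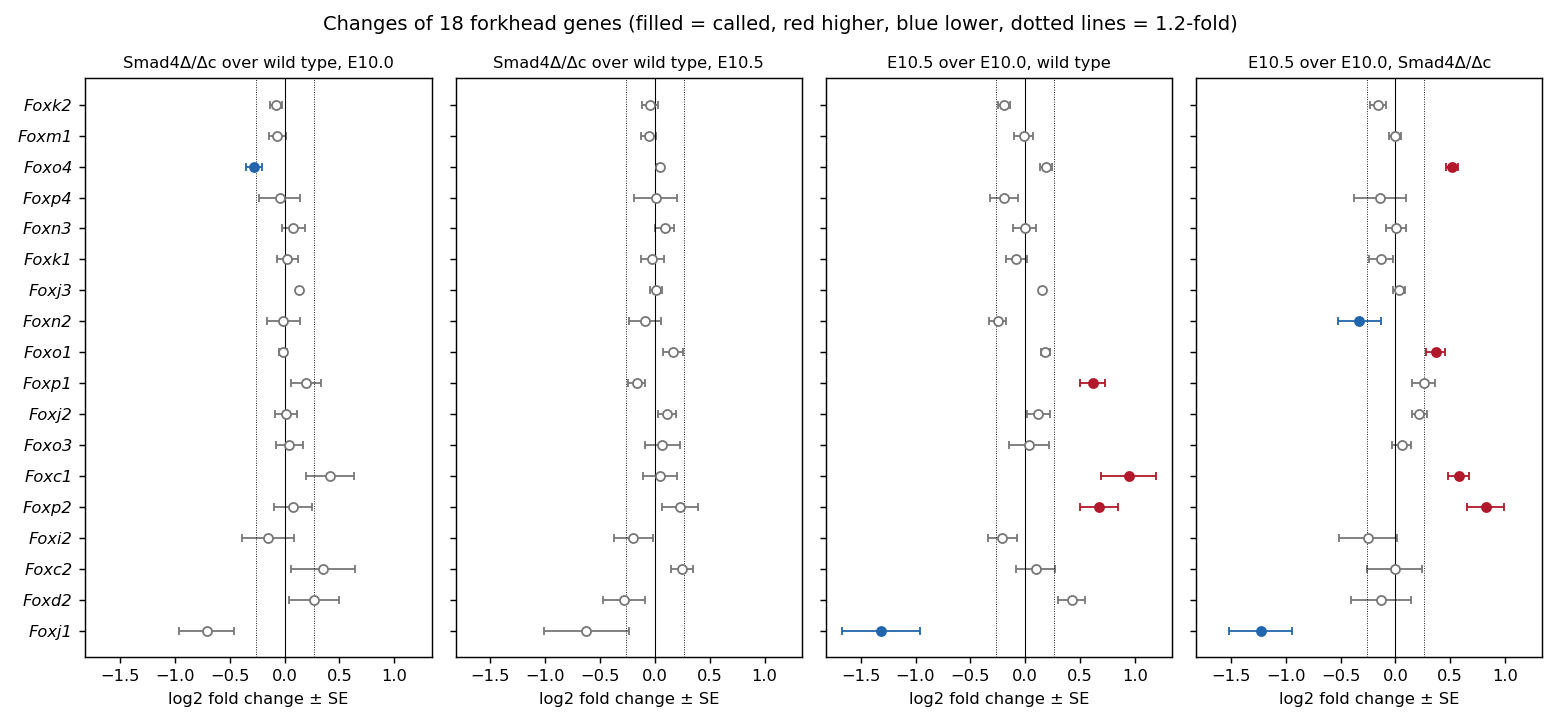
Log2 fold change ± SE of the 18 members in the 4 comparisons, with filled points for called members (red higher, blue lower) and dotted lines at 1.2-fold. *Foxo4* comes from the table that kept chromosome X. Without *Foxo4*, 0, 0, 4 and 5 of 17 members are called from left to right.

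Whether the stage change differed between genotypes was tested with an interaction term. With the edgeR quasi-likelihood test 0 of 17 members passed an FDR of 0.1, against 0.186% of all genes tested, and 1 member, *Foxp1*, had an unadjusted *P* under 0.05. Its change in mutants minus that in wild type was -0.36, with an adjusted *P* of 0.797. For *Foxc1* this difference was -0.36 (adjusted *P*=0.950), for *Foxo1* 0.18 (0.950), for *Foxn2* -0.08 (0.970) and for *Foxj1* 0.08 (0.984). DESeq2 also called 0 members. A member called in 1 genotype is thus not shown to differ between them.

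Markers of other cell types moved between the same groups. Of all genes tested, 10.1% were called with stage in wild type, 19.2% in mutants, and 6.61% between genotypes at E10.0. Of the 7 macrophage markers tested, 6 rose with stage in wild type and 6 in mutants, and the summed level of the 10 markers was 4.60 to 9.01 CPM in wild type and 10.5 to 13.9 CPM in mutants at E10.0, and 18.1 to 20.4 and 21.9 to 30.9 CPM at E10.5. Of these 7, 4 were also higher in mutants at E10.0. Of the 12 ectodermal markers, 2 fell in wild type, and 5 fell and 2 rose in mutants. Of the 5 mesothelial markers tested, 3 rose in wild type (*Tbx18*, *Upk1b* and *Wt1*). In mutants 2 rose (*Tbx18* and *Upk1b*) and 2 fell (*Wt1*, with group means of 7.59 and 1.17 CPM, and *Upk3b*). The change of *Wt1* and *Upk3b* with stage was also called lower in mutants than in wild type (interaction, quasi-likelihood test). The 6 markers summed to 56.6 to 92.1 CPM at E10.0 and 90.5 to 147 CPM at E10.5. These sums were mostly *Tbx18*, with group means of 59.1 to 129 CPM, so their rise says little about the other mesothelial markers. Of the 8 markers of muscle precursors and somites tested, 3 rose and 1 fell in wild type, and 2 rose and 3 fell in mutants, with sums of 126 to 171 CPM at E10.0 and 146 to 185 CPM at E10.5 over the 11 listed. Of the 10 endothelial markers, 1 fell in wild type and 2 in mutants, and of 5 erythroid markers tested 0 were called. Of 4 neural crest markers tested, 1 rose in wild type, and 1 rose and 1 fell in mutants, with sums of 28.7 to 59.5 CPM. Of 6 pericyte markers tested, 2 rose in wild type, and 1 rose and 1 fell in mutants, with sums of 209 to 298 CPM. Of 4 endoderm and floor plate markers tested, *Shh*, which limb buds themselves express, rose in both genotypes, and *Cldn6* fell in mutants. The sums of 61.4 to 105 CPM were mostly *Epcam* and *Cldn6*, and *Epcam* and *Sox17* are also in the ectodermal and endothelial lists. Group means of *Ttr*, *Apoa1* and *Sox2* were at most 0.309 CPM, and those of *Afp* at most 1.83 CPM, so this list says little about endoderm or floor plate. The part of other cell types in the stage changes of the forkhead genes was not tested.

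*Foxo4*, a FOXO factor on chromosome X (98449867 to 98456212 in mm9), was compared in a table that kept chromosomes X, Y and M. It was at 92.9, 83.7 and 94.1 CPM in wild type and at 81.7, 70.7, 70.7 and 74.1 CPM in mutants at E10.0. All mutants lay below all wild-type embryos, and the log2 fold change was -0.28 ± 0.07 with an adjusted *P* of 0.0200 in edgeR's exact test, which called 6.56% of all genes of that table. The fold change was close to the threshold of 0.26 on the log2 scale, and the call was lost in 9 of 22 alternatives. All 22 gave differences of -0.33 to -0.25. Leaving out wild-type replicate 1 or 3 or mutant replicate 3 or 4 at E10.0 was among these, with -0.26, -0.25, -0.26 and -0.26, and so was leaving out mutant replicates 4 and 5 together, with -0.25. At E10.5 its levels were 106, 102 and 102 CPM in wild type and 106, 103, 109 and 107 CPM in mutants. The groups overlapped, and the difference was 0.04 ± 0.03 (adjusted *P*=0.957), where 3.72% of genes were called.

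From E10.0 to E10.5 *Foxo4* rose in mutants by 0.52 ± 0.05 on the log2 scale (adjusted *P*=6.74e-10, edgeR exact test), where 19.3% of the genes of this table were called. Without mutant replicates 4 and 5 the rise was 0.46 and also passed (adjusted *P*=6.99e-05). In wild type all embryos at E10.5 were above those at E10.0, but the difference of 0.19 ± 0.06 had an adjusted *P* of 0.172, where 10.2% were called. The interaction was 0.33, with an adjusted *P* of 0.372 in the quasi-likelihood test, where 0.172% were called. The median log2 fold change of the 468 genes of chromosome X tested was 0.00 between genotypes at E10.0, 0.06 with stage in wild type and 0.05 with stage in mutants. *Xist* had 38536 to 90026 reads in every embryo, and each of 4 genes of chromosome Y had at most 6.

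Clusters of forkhead genes lie on chromosomes 8 (*Foxf1*, *Foxc2* and *Foxl1*) and 13 (*Foxq1*, *Foxf2* and *Foxc1*), and in each cluster the *Foxc* gene was far above its neighbours. FOXF and FOXL1 are mesenchymal targets of hedgehog signals in the gut. *Foxf1*, listed as *Foxf1a* and therefore outside the 42, had 0 to 4 reads per embryo. *Foxl1* was at 0.201, 0.123 and 0.330 CPM in wild type and at 0.222, 0.415, 0.137 and 0.0738 CPM in mutants at E10.0, and at 0.0656 to 0.261 CPM at E10.5. *Foxf2* was at 0.128, 0.184 and 0.176 CPM in wild type and at 0.205, 0.225, 0.246 and 0.148 CPM in mutants at E10.0, and at 0.117 to 0.34 CPM at E10.5. *Foxq1* had 0 to 5 reads per embryo. *Foxc2* was between 1.59 and 3.39 CPM in all embryos, and it was not called in any comparison, with log2 fold changes of 0.35 ± 0.29 and 0.25 ± 0.10 between genotypes and 0.10 ± 0.18 and -0.01 ± 0.25 between stages.

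Of 7 tested genes that lie beside forkhead genes, *Irf8*, a factor of myeloid cells, was called, in mutants between stages (0.883 ± 0.156 to 1.29 ± 0.222 CPM, adjusted *P*=0.0778, edgeR exact test), and 0 were called in the 3 other comparisons. In that comparison 19.2% of all genes tested were called. The macrophage markers rose with stage by a median log2 fold change of 1.55 in wild type, where *Irf8* was not called, and 1.14 in mutants. Whether the rise of *Irf8* came from myeloid cells was not tested.

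Of the 24 members that could not be compared with the filter, *Foxe3* and *Foxi1* had no read in any embryo, and *Foxd4*, *Foxe1*, *Foxa2* and *Foxa3* had 1 to 3 reads over all 14 embryos. FOXA factors mark endoderm and floor plate, FOXE3 the lens and FOXI1 ion-transporting epithelia. The other 18 had 17 (*Foxn4*) to 401 (*Foxd1*) reads over all embryos. Among them were *Foxa1*, *Foxb1*, *Foxb2*, *Foxd1*, *Foxf2*, *Foxh1*, *Foxi3*, *Foxl1*, *Foxl2*, *Foxn1*, *Foxn4*, *Foxo6*, *Foxp3*, *Foxq1*, *Foxr1*, *Foxr2* and *Foxs1*. Their levels in single embryos ranged from 0 to 1.80 CPM. *Foxd1*, a gene of kidney stroma, was uneven among the mutants, with 1.80, 0.468, 0.396 and 0.0977 CPM at E10.5 and 0.257, 0.554, 1.12 and 0.836 CPM at E10.0, while wild type had 0.384 to 0.766 CPM.

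Without the filter 2 of these members were called between stages in mutants, at low counts, where 14.1% of 18612 genes were called. *Foxs1*, a gene of perivascular cells, had 0, 4, 7 and 4 reads in mutants at E10.0 and 16, 22, 9 and 7 reads at E10.5 (log2 fold change 1.89, adjusted *P*=0.00306, edgeR exact test). *Foxh1*, a partner of SMAD proteins in nodal signalling, had 26, 42, 15 and 15 reads in mutants at E10.0 and 16, 2, 14 and 5 reads at E10.5 (-1.19, adjusted *P*=0.0307), with overlap of the stages. With counts this low, the fitted fold changes depend on the prior count.

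**Figure D5:**
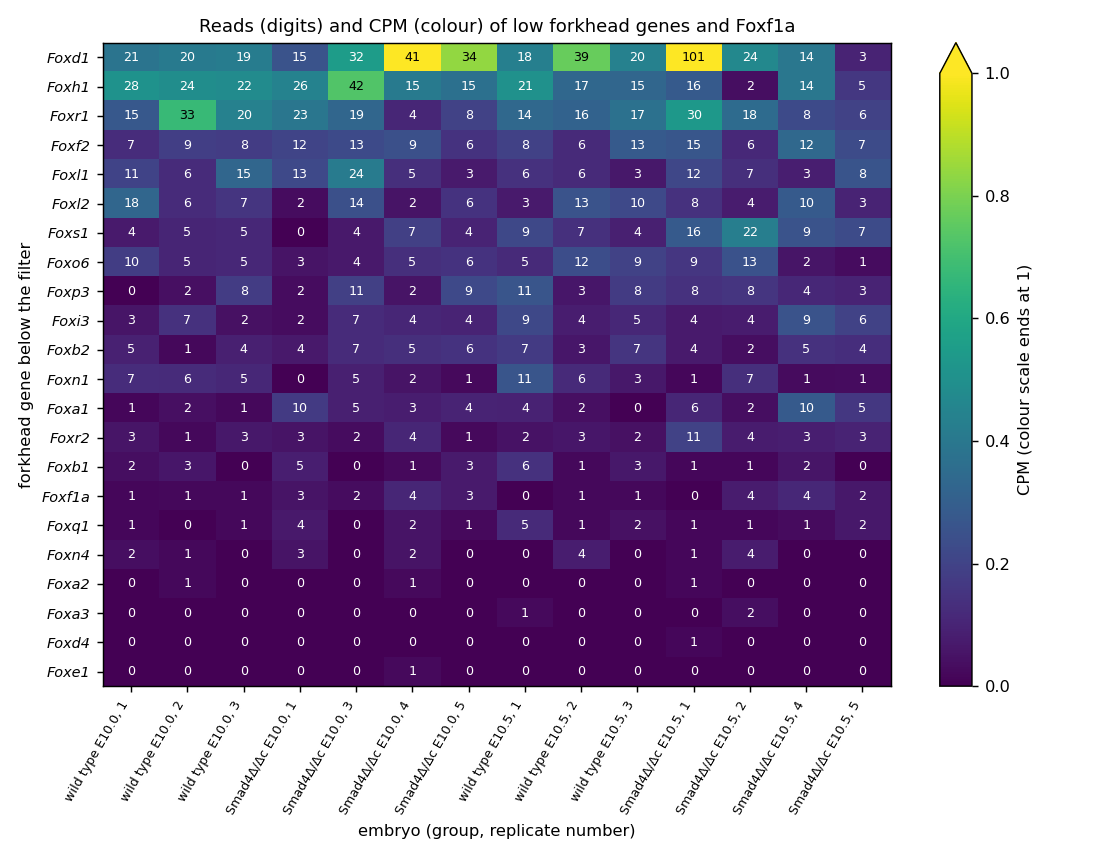
Reads (digits) and CPM (colour, scale ending at 1 CPM) of members below the filter and of *Foxf1a*, in each of the 14 embryos. *Foxd1* reaches 101 reads in mutant replicate 1 at E10.5.

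Genes that act with or under forkhead factors were counted from fixed lists. Of all genes tested, 6.61% were called between genotypes at E10.0 and 3.73% at E10.5. With stage, 10.1% were called in wild type and 19.2% in mutants. A few calls in a list of this size are therefore not a result about the list. Of 20 regulators of FOXO proteins, 0 were called between genotypes at E10.0 and 0 at E10.5. *Ywhag*, a 14-3-3 protein, fell with stage in mutants (335 ± 12.2 to 271 ± 4.21 CPM, adjusted *P*=0.000273, edgeR exact test).

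Of 19 known FOXO target genes tested, *Cdkn1b*, a cell cycle inhibitor, was lower in mutants at E10.0 (29.6 ± 1.49 to 24.3 ± 1.08 CPM, adjusted *P*=0.0730, edgeR exact test). At E10.5 *Bcl6*, a repressor (0.706 ± 0.0729 to 1.29 ± 0.0616 CPM, adjusted *P*=0.0171), and *Gadd45a*, a stress gene (6.92 ± 0.854 to 9.13 ± 0.424 CPM, adjusted *P*=0.0549), were higher in mutants. Between genotypes, 6.61% of all genes tested were called at E10.0 and 3.73% at E10.5. With stage, 3 rose and 0 fell in wild type, where 10.1% of all genes tested were called, namely *Ccng2* (adjusted *P*=4.05e-05), *Sesn3* (0.0337) and *Cdkn1a* (0.0555). In mutants 8 rose and 1 fell, where 10.8% of all genes tested rose and 8.4% fell, among them *Txnip*, an inhibitor of thioredoxin (35.3 ± 8.21 to 65.4 ± 1.65 CPM, adjusted *P*=8.14e-10), *Ccng2*, an atypical cyclin (38.3 ± 6.89 to 67.1 ± 9.56 CPM, adjusted *P*=2.59e-09), *Sesn3* and *Cdkn1b*. The median log2 fold change of the list with stage was 0.10 in wild type and 0.19 in mutants, beside -0.01 over all genes tested in both, and 0 of its members had an interaction.

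Of 16 FOXM1 target genes, *Cenpf* was higher in mutants at E10.0 (189 ± 39.8 to 259 ± 24.3 CPM, adjusted *P*=0.0461, edgeR exact test) and 0 were called at E10.5. Between stages 0 were called in wild type, and *Cdc25b* (0.36, adjusted *P*=0.000952) and *Ccnb2* (0.27 on the log2 scale, adjusted *P*=0.00734) rose in mutants. The share of all genes tested that was called was 6.61% between genotypes at E10.0 and 19.2% between stages in mutants. *Foxm1* itself was at 166 ± 12.7 and 159 ± 9.27 CPM in wild type and mutants at E10.0 and at 165 ± 11.5 and 158 ± 8.53 CPM at E10.5, and it was not called.

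Of 21 cofactors of forkhead proteins tested, 1 was called at E10.0, the acetyltransferase gene *Ep300*, higher in mutants (130 ± 15.3 to 164 ± 16.1 CPM, adjusted *P*=0.0688, edgeR exact test), and 0 at E10.5. With stage, *Tle6*, a Groucho-family gene, fell in wild type (-0.61, adjusted *P*=0.0575), and in mutants *Aes*, also of this family, rose (0.42, adjusted *P*=0.000991) and *Gatad2a* fell (-0.32, adjusted *P*=0.00331). Of all genes tested, 6.61% were called between genotypes at E10.0, and 10.1% and 19.2% with stage in wild type and mutants. Of 6 genes listed as hedgehog targets, *Ptch1* and *Hhip*, which encode hedgehog-binding proteins, were higher in mutants at E10.0 by 0.38 and 0.50 on the log2 scale (adjusted *P*=0.0141 and 0.0920, edgeR exact test), and *Hhip* also at E10.5 by 0.62 (adjusted *P*=0.0245). *Grem1*, a BMP antagonist that depends on both signals, was lower at both stages, with log2 fold changes of -1.22 and -1.09. In mutants *Grem1* and *Hhip* rose with stage, and in wild type 0 of the 6 were called.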

How the data were processed

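RNA-seq counts of 14 samples were analysed. Per the labels and the study's methods, unstranded polyA libraries were read for 50 cycles, aligned to mm9 with TopHat2 2.0.13, and uniquely mapped reads were assigned to genes by htseq-count, ignoring strand. The deposited values were raw counts per gene symbol, 1 file per embryo, and no sample was left out. Symbols were placed on chromosomes by the mm9 annotation (21897) or a RefSeq symbol (1269), and 118 could not be placed.

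The study's methods set the main test. The test excluded 1041 symbols of the sex chromosomes and the mitochondrion and required 1 CPM or more in 3 or more samples, libraries were normalized by TMM (factors 0.934 to 1.035), dispersions were estimated over all 14 samples with a prior of 10 degrees of freedom, and pairs of groups went through the exact test of edgeR (Benjamini-Hochberg FDR up to 0.1, fold from 1.2). Interactions were tested with edgeR's quasi-likelihood test. The scripts were tested on simulated counts. Levels are CPM after TMM, with the SD over the embryos of a group, intervals and limits cover counting error only, and the SE of a log2 fold change was computed from the group means and SDs of CPM. *P*-values of the main test rest on the spread between embryos within groups, estimated over all 14 samples. The estimate of each gene is drawn toward a value shared by all genes. They therefore do not measure the spread of the compared groups alone. The versions were edgeR 4.0.16 and DESeq2 1.42.0 in R 4.3.3, and pandas 2.3.3 and matplotlib 3.10.9 in Python 3.11.15.

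The members, lists and markers were chosen with earlier results of these data known. By rule, values per embryo were given for members called between genotypes, the 6 with the largest changes between stages and the cluster genes of chromosomes 8 and 13, and up to 4 called genes per list and comparison were named. Values per embryo of *Foxd1*, *Foxh1*, *Foxs1*, *Foxp4* and *Foxj3* were added after the values were seen. Results of some genes are not reported here, and *Fendrr*, *Emc8*, *Foxd2os* and *Foxo6os* were not analysed here. Proteins were not used here.

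Replicate numbers are shared between groups in the labels. In mutants the deviations of the 3 pairs with the same number at both stages correlated by 0.27 to 0.61. Each thus exceeded the limit of 0.1 set for a pairing. Pairs with different numbers also did so within replicates 4 and 5 (0.29 and 0.38) and within the other mutants (0.11 to 0.35). Pairs of replicate 4 or 5 with another mutant correlated by -0.59 to -0.17. The rule therefore cannot tell a pairing by number from the split between replicates 4 and 5 and the other mutants. What the shared numbers stand for is not given in the sources used here. In the 3 other comparisons the mean correlation was -0.16 to -0.01, and the samples share a number only.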

Additional observations from a re-analysis of the deposited data

How the results depend on the processing

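Of 13 results on single members, 283 of 301 alternative values kept their direction and side of the threshold, 18 lost the call and 0 reversed. These 13 were the calls of single members and the uncalled group comparisons of *Foxo4*. Other uncalled results that passed in some alternatives are not in this tally. Among them were *Foxj1*, *Foxc1* and *Foxp4* between genotypes at E10.0 and *Foxp1* between stages in mutants. The 18 were *Foxo4* between genotypes at E10.0 (9), *Foxn2* (7), *Foxc1* (1) and *Foxo1* (1) between stages in mutants. Between genotypes at E10.0 the count of members called went from 0 to 1 with the replicate block (*Foxp4*), with each stage fitted apart (*Foxj1*), without mutant replicates 4 and 5 (*Foxp4*) and with chromosomes X, Y and M kept (*Foxo4*), and it was 0 to 1 with each embryo left out in turn. Numbers 4 and 5 occur in mutants only, so the genotype difference with the block rests largely on the other mutants. The 2 calls of *Foxp4* (log2 -0.34 with the block, -0.36 without mutant replicates 4 and 5) are therefore not separate results. The count stayed 0 at E10.5 and for the interaction in every alternative, the block included. Between stages it was 4 in wild type (4 to 4 with embryos left out) and 5 in mutants (4 to 6 with embryos left out, 6 with the block), and 2 within mutant replicates 4 and 5, which leaves 2 embryos per stage. That last fit kept the dispersions of all 14 samples. The 2 calls of *Foxo4* became 1 with DESeq2, with RLE size factors, without the filter, without mutant replicates 4 and 5 and without *Rn45s*, and 1 to 2 with embryos left out. The cause was not tested, except that these settings move a fold change that lies next to the threshold. The block changed no other call. Members of a few reads per embryo are limited by depth, since 3 reads are up to 0.0977 CPM.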
